A study of Mus musculus with 6 samples.

Results

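The 5 lateral habenula marker genes Pcdh10, Gap43, Chrm3, Mef2c and Tmem145 were taken by symbol from a table of 55359 mouse genes, and all 5 were found. They were taken as a named set of markers, and no threshold on their values entered the rule. RNA was sequenced from the habenula of C57BL/6 mice aged 2 months, in 3 libraries labelled Tet2 cKO (a conditional knockout of Tet2, which encodes a dioxygenase that oxidises methylated cytosine in DNA) and 3 WT libraries. The Cre line, the floxed exons, the cells in which deletion takes place, the sex of the mice, whether WT mice carried a floxed allele and whether each library is 1 animal are not stated in the labels. P-values therefore cover the spread among these libraries, which may be technical. The comparison asks how loss of Tet2 affects habenular gene expression, here at markers of 1 of its divisions.

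The habenula lies above the thalamus beside the third ventricle and is split into a medial and a lateral nucleus. Lateral habenula neurons are mostly glutamatergic, send axons through the fasciculus retroflexus to the midbrain, and are known for firing at aversive events and omitted rewards. Medial habenula neurons are known for cholinergic and tachykinin transmission to the interpeduncular nucleus. The marker genes cover different roles: Pcdh10 is an adhesion molecule, Gap43 a growth cone protein, Chrm3 an acetylcholine receptor, Mef2c a transcription factor and Tmem145 a predicted seven-transmembrane protein. In mouse neurons, MEF2 factors are known to induce Pcdh10, whose product takes part in the removal of excitatory synapses.

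Libraries held 17441429 to 17917987 counts with the Tet2 cKO label and 16089676 to 17743639 counts in WT. Tet2 itself, which checks the labels, stood at 4.47, 4.02 and 3.96 FPKM (the count divided by the exonic size of the gene and by the library total) in the libraries labelled Tet2 cKO, against 3.45, 3.46 and 3.71 FPKM in WT. Each library with the Tet2 cKO label stood above every WT library, with a log2 difference of 0.22 that did not pass over all genes (unadjusted p = 0.0174, adjusted p = 0.9999 in edgeR). A count over the whole gene does not separate deleted from remaining exons. Directions below are those of the labels, not of a shown loss of Tet2. WT replicate 3 had the lowest mean levels of the medial and pan-habenula marker lists. It also had the highest mitochondrial share of counts, 7.655% against 5.426% to 6.439% in the other libraries. Each difference was also computed without this library.

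The study concerns an enzyme that acts on methylated cytosine, which in mammals lies mostly in CpG dinucleotides, so the sequence at the gene starts is shown with its CpG sites. Methylation itself was not measured. The windows run from 250 bases before to 50 bases after a RefSeq transcript start on GRCm38.p6, read on the strand of the gene from 5′ to 3′, and capitals mark each CpG. The table of windows held 4 of the 5 genes, all but Gap43, and those shown cover the gene start in GENCODE release M21.
Pcdh10 (chr3:45378148-45378447, plus strand): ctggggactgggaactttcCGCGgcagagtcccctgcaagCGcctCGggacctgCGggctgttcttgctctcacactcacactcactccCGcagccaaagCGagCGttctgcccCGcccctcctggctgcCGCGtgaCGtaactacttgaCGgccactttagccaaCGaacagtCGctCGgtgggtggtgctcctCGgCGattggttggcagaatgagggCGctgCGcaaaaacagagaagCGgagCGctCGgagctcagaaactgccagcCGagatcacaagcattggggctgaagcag
Tmem145 (chr7:25305858-25306157, plus strand): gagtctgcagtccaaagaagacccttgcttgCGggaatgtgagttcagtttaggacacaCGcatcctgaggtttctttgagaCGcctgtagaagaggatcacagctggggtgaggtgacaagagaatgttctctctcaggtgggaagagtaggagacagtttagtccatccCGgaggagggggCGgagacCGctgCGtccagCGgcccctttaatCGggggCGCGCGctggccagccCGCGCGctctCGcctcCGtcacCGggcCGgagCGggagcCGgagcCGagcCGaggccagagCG
Chrm3 (chr13:10360754-10361053, minus strand): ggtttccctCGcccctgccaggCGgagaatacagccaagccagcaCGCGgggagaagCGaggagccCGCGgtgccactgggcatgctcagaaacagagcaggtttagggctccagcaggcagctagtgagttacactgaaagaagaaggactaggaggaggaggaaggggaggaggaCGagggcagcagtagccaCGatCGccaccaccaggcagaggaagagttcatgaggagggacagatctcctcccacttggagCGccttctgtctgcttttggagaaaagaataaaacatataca
Mef2c (chr13:83503784-83504083, plus strand): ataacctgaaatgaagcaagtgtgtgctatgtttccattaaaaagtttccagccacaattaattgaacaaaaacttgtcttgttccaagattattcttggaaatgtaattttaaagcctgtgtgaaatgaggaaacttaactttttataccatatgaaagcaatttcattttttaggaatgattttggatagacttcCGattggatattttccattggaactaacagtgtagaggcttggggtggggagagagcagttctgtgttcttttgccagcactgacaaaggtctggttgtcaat
The windows of Pcdh10 and Tmem145 held 24 CpG sites each, more than 80.02% of the 32851 windows of this length. The Chrm3 window held 11 and the Mef2c window held 1, which is more than 58.62% and 5.43% of windows. The genes therefore did not share a CpG density at their starts, and Mef2c has further starts in the table with 10 and 4 CpG sites. The letters CTA and TAG with 4 bases of any kind between them, a simplified form of the site MEF2 proteins bind, were searched on both strands. They were in none of the windows of these 4 genes, against 3.69% of all windows. Absence of this pattern does not show that MEF2 sites are absent. The letters TGACGT, the core of a cAMP response element, were in the Pcdh10 window and in 7.51% of all windows, and they contain a CpG. These matches describe letters and not bound sites.

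Gap43 had by far the highest level per length. It averaged 233 FPKM over the 6 libraries, more than 99.4% of the 14539 tested genes, those whose mean reached 1 FPKM. Tmem145 and Pcdh10 followed at 13.3 and 13.04 FPKM, and their ranges over the libraries, 11.01 to 15.42 and 10.84 to 15.28 FPKM, covered each other almost fully, so these neighbours in the order did not differ beyond their spread. Mef2c averaged 7.60 FPKM (range 6.95 to 8.33) and Chrm3 3.59 FPKM (range 2.94 to 4.31), and neither range overlapped that of a neighbour in the order. The FPKM of long genes is divided by the union of all exons: Mef2c and Pcdh10 have 15715 and 15888 exonic bases, of which no more than 20.66% are coding in GENCODE release M21, against 1523 bases and 44.71% for Gap43. Transcripts that use few of those exons are understated on this scale, so the order is that of this annotation.

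**Figure D1:**
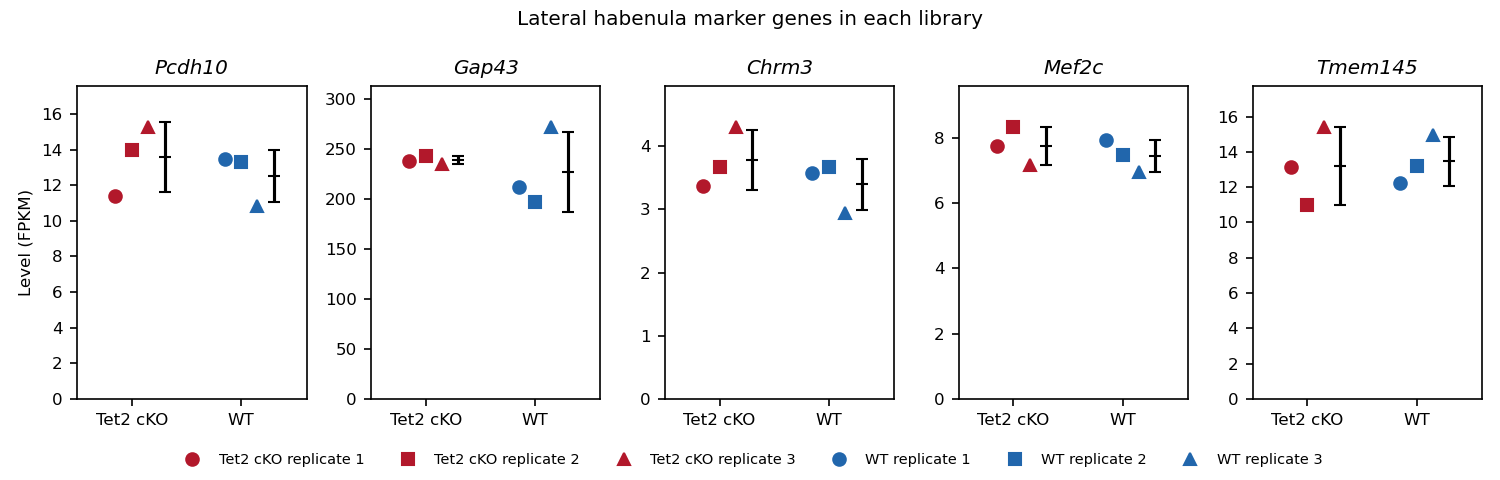
Level in FPKM (y axis, from 0, a separate scale for each gene) of the 5 marker genes in 3 libraries labelled Tet2 cKO and 3 WT libraries. Points are libraries, and the bar beside them is the mean with its SD (n = 3). The groups overlap in all 5 genes, and the Gap43 points of WT, 196.45 to 272.17 FPKM, lie on both sides of those under the Tet2 cKO label.

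No marker gene differed between the labels beyond the spread of the libraries. The edgeR quasi-likelihood test called 0 of the 5 genes at an adjusted p (Benjamini-Hochberg) under 0.05, and 0% of the 14539 tested genes (0 genes). At an unadjusted p under 0.05 it counted 0 of the 5 and 2.57% of the tested genes (374). DESeq2 called 4 genes and limma on log2(FPKM + 1) called 0 (263 and 477 at an unadjusted p under 0.05), none of them a marker gene at the adjusted threshold. The FPKM of the groups did not overlap in 0 of the 5 genes and in 6.8% of the tested genes (higher under the Tet2 cKO label in 3.34%). The log2 differences lay between -0.04 and 0.15 with a median of 0.06, against a median of -0.0021 over all tested genes, and 4 of 5 were above 0, as were 49.1% of the tested genes. All 5 had an adjusted p of 0.9999 in edgeR. In bulk tissue, fewer cells of a type and less RNA per cell cannot be told apart.

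Pcdh10 encodes a delta-protocadherin, a cell adhesion protein whose cytoplasmic tail binds Nckap1 of the actin-regulating WAVE complex. Pcdh10 (ENSMUSG00000049100) spans bases 45378398 to 45435623 of chromosome 3 in GRCm38, on the plus strand. Its level was 11.42, 13.98 and 15.28 FPKM in the libraries labelled Tet2 cKO, against 13.46, 13.28 and 10.84 FPKM in WT. Tet2 cKO replicates 2 and 3 were above every WT library, while replicate 1 was near the lowest of them. The means were 13.6 ± 1.96 FPKM in the libraries labelled Tet2 cKO and 12.5 ± 1.46 FPKM in WT (SD, n = 3 each), a log2 difference of 0.11 (95% interval -0.16 to 0.37), or 1.08-fold, with an unadjusted p = 0.389 in edgeR. Leaving out Tet2 cKO replicate 3 gave 0.015, leaving out WT replicate 3 gave 0.022, and leaving out Tet2 cKO replicate 1 gave 0.22. It shares 154 bases, 0.97% of its exonic bases, with the antisense gene 1700027H10Rik, which had 4 to 18 counts a library against 3057 to 4341 for Pcdh10, and the counting's use of strand is not given in the sources used here.

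The delta-protocadherins, a list of 10 that includes Pcdh10, were measured at 1.62 FPKM or more in every library. Pcdh9, the most abundant, averaged 24.5 ± 1.86 FPKM with the Tet2 cKO label and 22.7 ± 4.09 FPKM in WT. Of the 10, 9 had a log2 difference above 0, against 49.1% of the tested genes, and 0 were called, with a median of 0.16. That median was above 0 in every alternative computed (0.0838 to 0.232), but the alternatives reuse the same libraries. Signs within the list are not separate evidence either. Over the 6 libraries, r between Pcdh10 and the mean of the rest of the list was 0.89. Pcdh11x, on the X chromosome, had the smallest unadjusted p of the list. It stood at 2.31, 2.32 and 2.35 FPKM with the Tet2 cKO label, against 1.82, 2.09 and 1.62 FPKM in WT. The groups thus did not overlap, as in 6.8% of the tested genes. Its log2 difference was 0.33 (SE 0.101) and did not pass the adjustment over all genes (unadjusted p = 0.00863 in edgeR). Subunits of the WAVE complex, 9 genes that include Nckap1, had a median of -0.0025 with 4 above 0 and 0 called.

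Gap43 encodes a membrane-attached protein of growth cones and presynaptic terminals that binds calmodulin and is phosphorylated by protein kinase C. Gap43 (ENSMUSG00000047261) spans bases 42248442 to 42340651 of chromosome 16 in GRCm38, on the minus strand. Its level was 237.73, 242.77 and 234.92 FPKM in the libraries labelled Tet2 cKO, against 211.74, 196.45 and 272.17 FPKM in WT. The 3 libraries labelled Tet2 cKO lay close together, below WT replicate 3 and above the other WT libraries. The means were 238 ± 3.98 FPKM in the libraries labelled Tet2 cKO and 227 ± 40.0 FPKM in WT (SD, n = 3 each), a log2 difference of 0.06 (95% interval -0.19 to 0.31), or 1.04-fold, with an unadjusted p = 0.580 in edgeR.

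The difference of Gap43 turned on WT replicate 3. Leaving that library out gave a log2 difference of 0.23 (1.17-fold, 95% interval 0.08 to 0.37). Every library labelled Tet2 cKO lay above both remaining WT libraries, which 21.5% of the tested genes did in one direction or the other. It did not pass the edgeR test over all genes (unadjusted p = 0.00489, adjusted p = 0.559). In that comparison 0.0206% of the tested genes were called and 5.95% had an unadjusted p under 0.05. Without WT replicate 2 the difference was -0.035. With every library, limma voom with library weights, which gave WT replicate 3 a weight of 0.281, gave a log2 difference of 0.17 and did not call Gap43 either (unadjusted p = 0.0332, adjusted p = 0.694). The part of the mitochondrial share of WT replicate 3 in this result was not tested.

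Gap43 belongs to a list of 18 growth cone and phosphoinositide-binding proteins with their partner calmodulin. All were measured in every library, from Dpysl3, which averaged 19.5 FPKM with the Tet2 cKO label and 18.6 FPKM in WT, to Pcp4, which averaged 756 FPKM with that label and 738 FPKM in WT. Of the 18 genes, 11 had a log2 difference above 0 and 0 were called, with a median of 0.017. Leaving out WT replicate 3 moved that median to 0.10 and leaving out WT replicate 2 moved it to -0.043. Stmn1, a microtubule-destabilising phosphoprotein, stood at 225.73, 185.64 and 201.31 FPKM with the Tet2 cKO label, against 184.06, 167.63 and 274.87 FPKM in WT. Like Gap43 it was highest in WT replicate 3 and lowest in WT replicate 2. Marcks, another calmodulin-binding substrate of protein kinase C, stood at 56.14, 56.58 and 55.58 FPKM with the Tet2 cKO label, against 49.76, 50.30 and 51.44 FPKM in WT. Marcks is named because it had the smallest unadjusted p of the list (0.0398 in edgeR, where 2.57% of the tested genes were under 0.05). Its log2 difference of 0.14 (SE 0.0605) did not pass over all genes. The Marcks groups did not overlap, which held for 1 of the 18 genes and for 6.8% of the tested genes.

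Chrm3 encodes the M3 muscarinic acetylcholine receptor, which acts through Gq proteins and phospholipase C beta. Chrm3 (ENSMUSG00000046159) spans bases 9875486 to 10360847 of chromosome 13 in GRCm38, on the minus strand. Its level was 3.37, 3.67 and 4.31 FPKM in the libraries labelled Tet2 cKO, against 3.58, 3.68 and 2.94 FPKM in WT. Tet2 cKO replicate 3 was the highest and WT replicate 3 the lowest, and the other 4 libraries lay between 3.37 and 3.68 FPKM. The means were 3.78 ± 0.480 FPKM in the libraries labelled Tet2 cKO and 3.4 ± 0.402 FPKM in WT (SD, n = 3 each), a log2 difference of 0.15 (95% interval -0.13 to 0.42), or 1.11-fold, with an unadjusted p = 0.258 in edgeR. Leaving out Tet2 cKO replicate 3 gave 0.047 and leaving out WT replicate 3 gave 0.064. Chrm3 had the fewest counts of the marker genes, 326 to 482 a library, where counting error alone comes to about 5.06%, against a coefficient of variation over the 6 libraries of 12.5%.

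Among the 5 muscarinic receptors, Chrm2, which couples to Gi proteins, had the highest level and Chrm3 the next. Chrm2 averaged 7.62 ± 1.10 FPKM with the Tet2 cKO label and 7.53 ± 0.854 FPKM in WT. Chrm1, Chrm4 and Chrm5 lay between 0.21 and 1.64 FPKM in all libraries. Of the 4 receptors that passed the filter on low values, all but Chrm5, 2 had a log2 difference above 0 and 0 were called, with a median of -0.14. Gnaq, the alpha subunit of Gq, averaged 24.5 ± 3.02 FPKM with the Tet2 cKO label and 23.8 ± 1.71 FPKM in WT. Plcb4, the most abundant phospholipase C beta, averaged 30.5 ± 3.28 FPKM with the Tet2 cKO label and 31.4 ± 2.01 FPKM in WT (SD, n = 3 each). Of the 14 tested genes among 16 partners in Gq signalling, 8 were above 0 and 0 were called, with a median of 0.019.

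Mef2c encodes a MADS-box transcription factor of neurons that is also made by microglia and endothelial cells. Mef2c (ENSMUSG00000005583) spans bases 83504034 to 83667080 of chromosome 13 in GRCm38, on the plus strand. Its level was 7.75, 8.33 and 7.17 FPKM in the libraries labelled Tet2 cKO, against 7.93, 7.46 and 6.95 FPKM in WT. The groups interleaved, with Tet2 cKO replicate 2 highest and WT replicate 3 lowest. The means were 7.75 ± 0.580 FPKM in the libraries labelled Tet2 cKO and 7.45 ± 0.490 FPKM in WT (SD, n = 3 each), a log2 difference of 0.05 (95% interval -0.13 to 0.24), or 1.04-fold, with an unadjusted p = 0.557 in edgeR. It was the steadiest marker gene, with a coefficient of variation of 6.69% against 11.3% to 12.6% for the others. Its sign changed without Tet2 cKO replicate 2 (-0.0050) and with library weights (-0.010).

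Other cell types that make Mef2c were detected in every library. The 13 microglia markers had a mean level, as log2(FPKM + 1), of 2.93 to 3.09 under the Tet2 cKO label and 2.93 to 3.02 in WT, and their summed level was 133 to 150 FPKM with the label and 127 to 138 FPKM in WT. The 10 brain endothelial markers had a mean level of 3.23 to 3.42 under the Tet2 cKO label and 3.36 to 3.39 in WT, and their summed level was 110 to 134 FPKM with the label and 123 to 137 FPKM in WT. No marker of either list was at 0 in any library, and the part of these cells in the Mef2c level was not tested. Of the MEF2 family, Mef2a averaged 22.3 ± 0.676 FPKM and Mef2d 23.2 ± 2.13 FPKM with the Tet2 cKO label, against 21.4 ± 1.72 and 24.1 ± 2.17 FPKM in WT (SD, n = 3 each). Both stood above Mef2c on this per-length scale, whereas Mef2b was at 0.04 to 0.21 FPKM. Of 9 tested genes among 10 MEF2 factors, class IIa deacetylases that repress them and kinases that activate them, 5 were above 0 and 0 were called, with a median of 0.0051.

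Genes described as MEF2 targets in neurons, 10 of which were listed, had 6 above 0 and 0 called, with a median of 0.020. Nr4a1, an immediate early gene that encodes a nuclear receptor, stood at 9.41, 9.07 and 11.55 FPKM with the Tet2 cKO label, against 6.99, 8.25 and 8.21 FPKM in WT. The groups did not overlap, which held for 1 of the 10 genes and for 6.8% of the tested genes. Nr4a1 is named because it had the smallest unadjusted p of the list (0.0123 in edgeR, where 2.57% of the tested genes were under 0.05). Its log2 difference of 0.35 (SE 0.114) did not pass over all genes.

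Tmem145 encodes a predicted seven-transmembrane protein related by its fold to Gpr180, Tmem87a and Wls. Tmem145 (ENSMUSG00000043843) spans bases 25306106 to 25316195 of chromosome 7 in GRCm38, on the plus strand. Its level was 13.15, 11.01 and 15.42 FPKM in the libraries labelled Tet2 cKO, against 12.21, 13.22 and 14.97 FPKM in WT. The lowest and the highest library both carried the Tet2 cKO label. The means were 13.2 ± 2.20 FPKM in the libraries labelled Tet2 cKO and 13.5 ± 1.40 FPKM in WT (SD, n = 3 each), a log2 difference of -0.04 (95% interval -0.32 to 0.24), or 0.973-fold, with an unadjusted p = 0.765 in edgeR. Its sign changed without Tet2 cKO replicate 2 (0.076), without WT replicate 3 (0.055) and with library weights (0.058). It was measured with 567 to 792 counts a library, where counting error comes to about 3.87%. Of 9 genes listed for this protein family, 3 were above 0 and 0 were called, with a median of -0.039. The list includes Tmem181b-ps, a pseudogene by its symbol. Tmem181b-ps had the highest level of the list, at 16.5 FPKM with the Tet2 cKO label and 18.9 FPKM in WT. Gpr108, Wls and Gpr180 stood near Tmem145, at 11.1, 11.5 and 10.2 FPKM with the label and 12.7, 12.4 and 10.1 FPKM in WT.

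**Figure D2:**
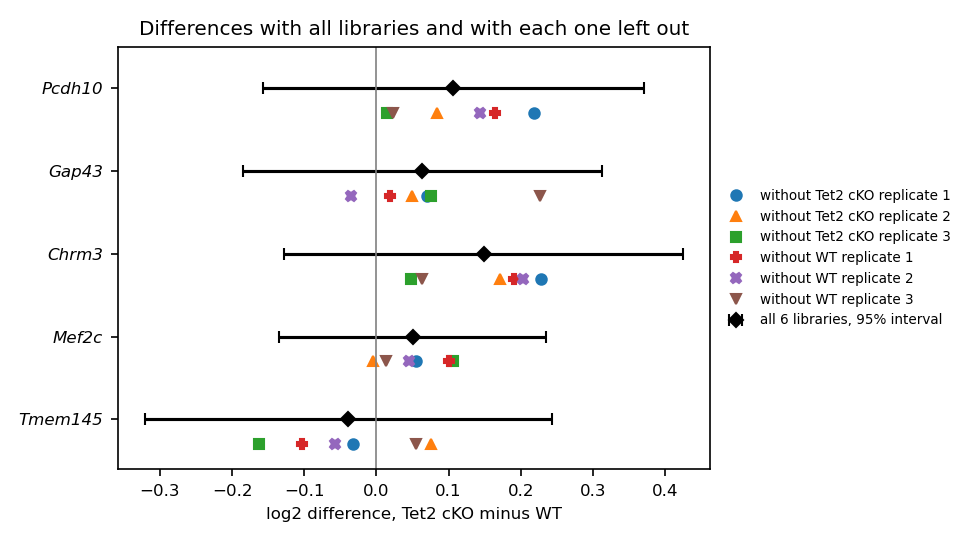
Log2 difference of the libraries labelled Tet2 cKO minus WT (x axis) for each marker gene, from edgeR. Black diamonds are the difference with all 6 libraries and its 95% interval, and the symbols below each are the difference with 1 library left out. All 5 intervals cover 0, and Gap43 lies at 0.23 without WT replicate 3 and at -0.035 without WT replicate 2.

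The intervals set what size of change these libraries could leave unseen. They reached from 0.897-fold to 1.29-fold for Pcdh10, from 0.880-fold to 1.24-fold for Gap43, from 0.915-fold to 1.34-fold for Chrm3, from 0.911-fold to 1.18-fold for Mef2c and from 0.801-fold to 1.18-fold for Tmem145. Exact two-sided permutation tests of log2(FPKM + 1), whose smallest possible p is 0.1 with 3 libraries a group, gave 0.5 for Pcdh10, Chrm3 and Mef2c, 0.6 for Gap43 and 0.9 for Tmem145. A p that misses the threshold does not show that the levels were equal.

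The marker genes did not move as a set from library to library. Each varied over the 6 libraries by 1.20-fold (Mef2c) to 1.47-fold (Chrm3) between its lowest and highest FPKM. Pcdh10 and Chrm3 followed each other. Both were lowest in WT replicate 3, at -0.25 and -0.26 relative to their own means on the log2(CPM + 1) scale, and highest in Tet2 cKO replicate 3, at 0.23 and 0.25. Pearson's r between them was 0.94 over the 6 libraries and 0.90 without WT replicate 3. Mef2c and Tmem145 mirrored each other, with an r of -0.98, and -0.97 without WT replicate 3. In Tet2 cKO replicate 2 Mef2c was at its highest (0.14) and Tmem145 at its lowest (-0.25), and in Tet2 cKO replicate 3 and WT replicate 3 Tmem145 was high (0.21 and 0.18) and Mef2c low (-0.087 and -0.12). The other 8 pairs, all 4 with Gap43 among them, had an r between -0.49 and 0.28, and each of the 8 changed sign when some library was left out. All 10 pairs of genes were computed. They share libraries and depth, and these values are descriptions over 6 libraries.

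**Figure D3:**
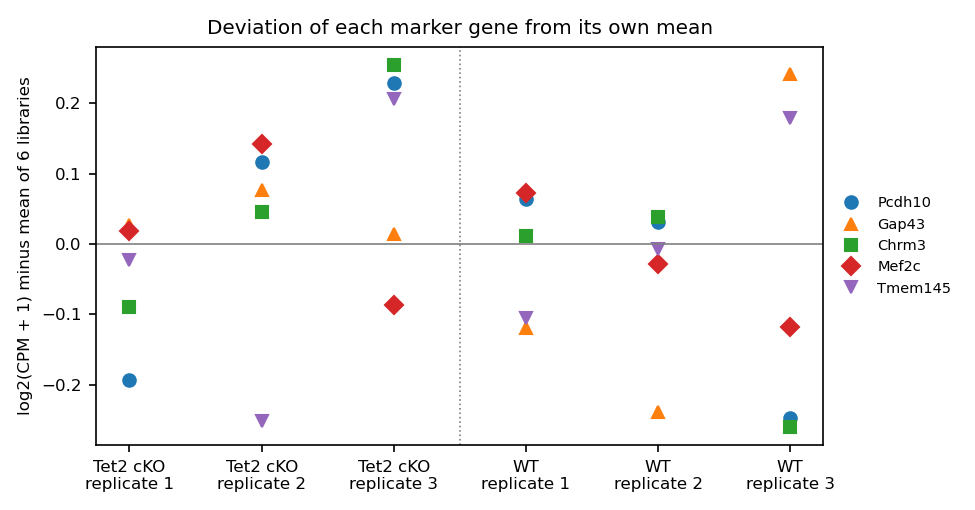
Deviation of each marker gene from its own mean of 6 libraries, as log2(CPM + 1) (y axis), in 3 libraries labelled Tet2 cKO and 3 WT libraries (x axis). Pcdh10 and Chrm3 lie on the same side of 0 in each library, at -0.25 and -0.26 in WT replicate 3, while Gap43 and Tmem145 are high there at 0.24 and 0.18.

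The balance of short and long genes differed between the libraries, and in WT replicate 3 the signs of all 5 marker genes matched it. Over the tested genes, split into 5 classes by exonic size, the shortest class (up to 1819 bases) had a median deviation of 0.069 in WT replicate 3 and the longest class (from 7286 bases) one of -0.077. Tet2 cKO replicate 1 leaned the same way, at 0.058 and -0.039, and the other libraries the opposite way. The marker genes lower in WT replicate 3 were the longer ones, Mef2c with 15715 exonic bases, Pcdh10 with 15888 and Chrm3 with 6253, and those higher were Tmem145 with 2873 and Gap43 with 1523. Against genes of their own size class, Gap43 and Tmem145 were still above 79.4% and 76.9% of genes in WT replicate 3, and Chrm3 and Pcdh10 above 10.4% and 14.5%, while Mef2c, above 40.0%, was near the middle. Signs went against the class median for Mef2c and Tmem145 in Tet2 cKO replicate 1, for Gap43 in Tet2 cKO replicate 2, for Gap43, Mef2c and Tmem145 in Tet2 cKO replicate 3 and for Mef2c in WT replicate 2. In Tet2 cKO replicate 3, Chrm3, Pcdh10 and Tmem145 stood above 99.0%, 98.4% and 95.6% of genes of their size. With the size trend of each library removed, an alternative added after the data were seen, the log2 differences were 0.082 for Pcdh10, 0.083 for Gap43, 0.15 for Chrm3, 0.026 for Mef2c and -0.026 for Tmem145, with 0 called.

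**Figure D4:**
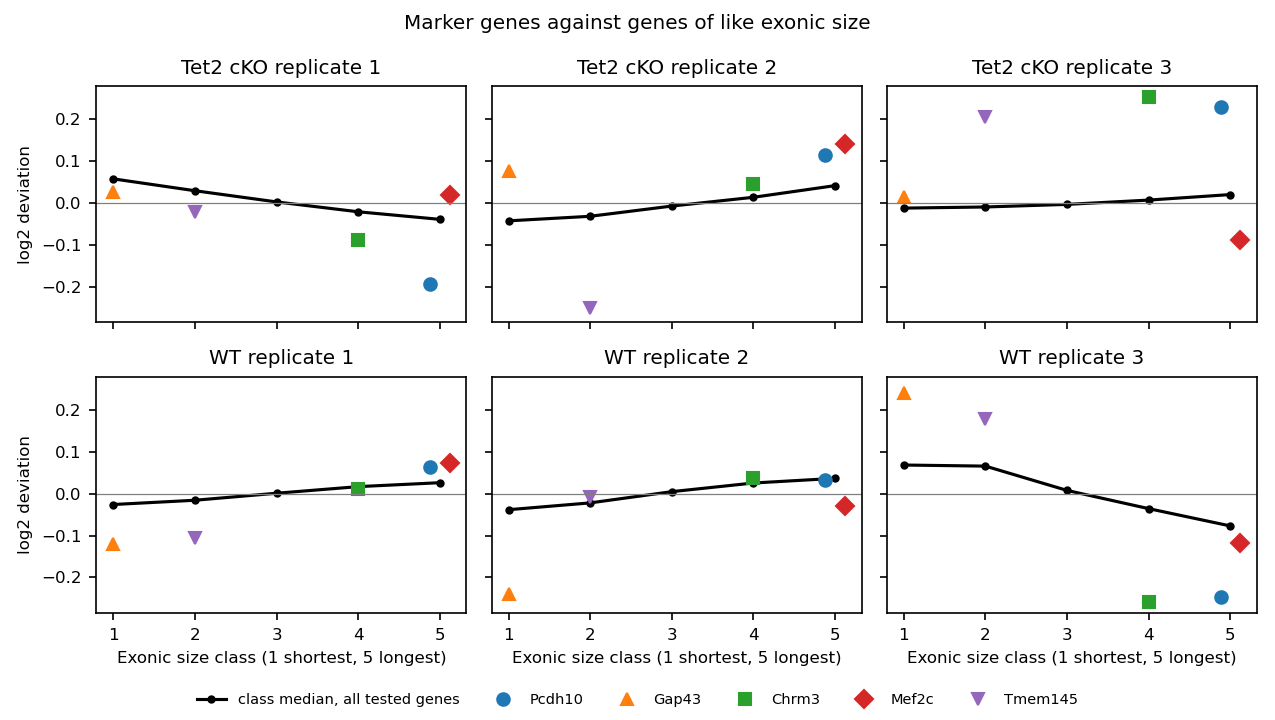
Log2 deviation from the mean of 6 libraries (y axis) against exonic size class of the tested genes (x axis, 5 classes of about equal number), 1 panel a library. The black line joins the class medians and symbols are the 5 marker genes, Pcdh10 and Mef2c being drawn side by side in class 5. The line falls from 0.069 to -0.077 in WT replicate 3, and Pcdh10 and Chrm3 lie below it there and above it in Tet2 cKO replicate 3.

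Set beside other region markers, the mean of the 5 genes did not follow the order of the other habenula lists. Their mean level, as log2(FPKM + 1), was 4.12, 4.17 and 4.28 in the libraries labelled Tet2 cKO, against 4.13, 4.12 and 4.13 in WT. The medial habenula list of 15 genes, led by Calb2 and Tac2, was at 3.599, 3.22 and 3.51 under the Tet2 cKO label, against 3.53, 3.73 and 3.03 in WT. Its genes did not all move with this mean. Calb2 was highest in WT replicate 3, at 332.01 FPKM against 250.90 to 305.78 FPKM in the other libraries, while Tac2 was lowest there at 30.84 FPKM. Calb2 had the smallest unadjusted p of the list (0.0382 in edgeR), with a log2 difference of -0.20 that did not pass over all genes. The pan-habenula list of 8 genes, led by Lrrc55 and Nr4a2, was at 3.75, 3.51 and 3.71 under the Tet2 cKO label, against 3.67, 3.88 and 3.31 in WT. Both lists were lowest in WT replicate 3, next lowest in Tet2 cKO replicate 2 and highest in WT replicate 2. In the same order, Gap43 stood at 272.17, 242.77 and 196.45 FPKM, its highest, next highest and lowest values. Over the 6 libraries, r between Gap43 and these lists was -0.86 for both, and -0.71 for the medial and -0.69 for the pan-habenula list without WT replicate 3. The relation was not particular to these lists. For Gap43, r was -0.90 with the hippocampal markers and -0.88 with the muscarinic receptors, and -0.81 and -0.79 without WT replicate 3. For the other 4 genes, r with the medial list was -0.053 to 0.53 and changed sign without WT replicate 3 in each of them. The 12 thalamus markers, which belong to the tissue below the habenula, were at 4.796, 4.82 and 4.66 under the Tet2 cKO label, against 4.84, 4.79 and 4.74 in WT, and r with Tmem145 was -0.88 with and without WT replicate 3. Mef2c went the other way, with an r of 0.79 with the thalamus list and 0.82 without WT replicate 3. An r was computed for each marker gene with every list, and those printed are a selection. Others were unstable, such as Gap43 with the astrocyte list, at -0.40 over the 6 libraries and 0.97 without WT replicate 3.

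**Figure D5:**
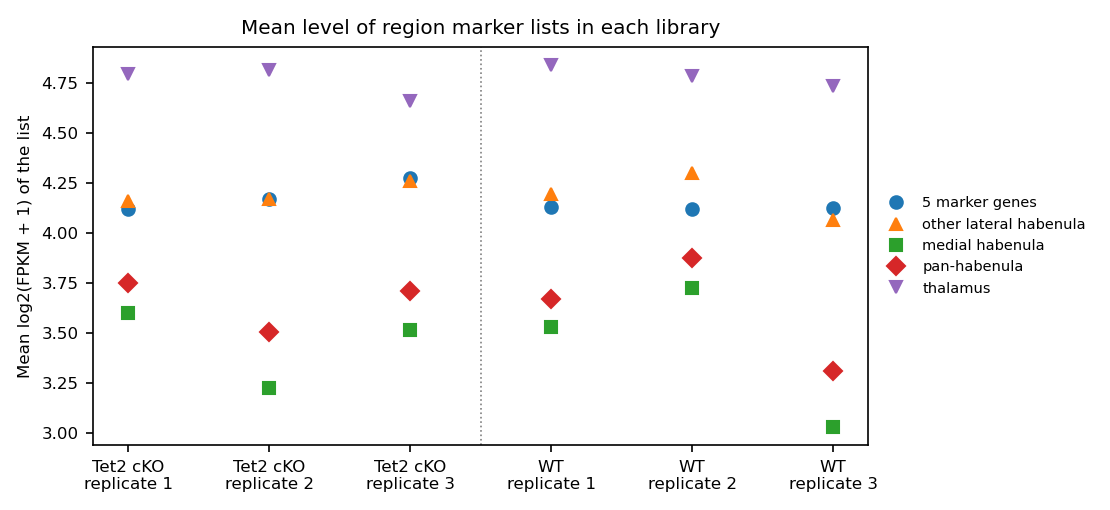
Mean log2(FPKM + 1) of 5 region marker lists (y axis) in 3 libraries labelled Tet2 cKO and 3 WT libraries (x axis). The medial and pan-habenula lists drop to 3.03 and 3.31 in WT replicate 3, while the mean of the 5 marker genes lies between 4.12 and 4.28 in all libraries, with its members moving in opposite directions in WT replicate 3.

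Beside the 5 genes under the lateral habenula label, 13 other genes used as markers of these neurons were listed, and all 13 passed the filter. Necab1, Syn2 and Gpr151 were the most abundant, at 82.3, 63.5 and 62.9 FPKM with the Tet2 cKO label and 81.8, 69.2 and 59.6 FPKM in WT. Cartpt was the least, at 1.02 to 3.16 FPKM. Their mean level was 4.16, 4.17 and 4.26 under the Tet2 cKO label, against 4.19, 4.30 and 4.06 in WT, and r with this list was 0.81 for Chrm3, 0.73 for Pcdh10, 0.11 for Mef2c, -0.040 for Tmem145 and -0.85 for Gap43. Leaving out WT replicate 3 gave 0.55, 0.45, -0.74, 0.57 and -0.67 for these genes in that order. The list was mixed. In WT replicate 3, Tet2 cKO replicate 2 and WT replicate 2, Gpr151 stood at 37.50, 50.30 and 81.02 FPKM and Htr5b at 8.21, 8.83 and 16.19 FPKM. These were their lowest, next lowest and highest values, as in the medial list. Vgf was highest in WT replicate 3 (54.37 FPKM) and Spon1 in Tet2 cKO replicate 2 (14.82 FPKM). An r with this list is therefore no check of a lateral identity. Of the 13, 8 had a log2 difference above 0 and 0 were called, with a median of 0.010. Htr2c, a Gq-coupled serotonin receptor, had the smallest unadjusted p of this list (0.0684 in edgeR), standing at 19.96, 21.91 and 22.11 FPKM with the Tet2 cKO label, against 20.85, 18.19 and 17.25 FPKM in WT. The medians of the medial, pan-habenula and thalamus lists were -0.013, 0.027 and -0.044, with 5 of 14, 4 of 7 and 3 of 12 tested genes above 0 and 0 called. Leaving out WT replicate 3 gave medians of -0.23, -0.11 and -0.032. Bulk tissue does not show which cells made these transcripts, so the label rests on the names of the genes.

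Markers of other cells that a habenula dissection could hold varied between libraries. The 12 hippocampal markers had a mean log2(FPKM + 1) of 1.797 to 1.88 under the Tet2 cKO label and 1.73 to 1.99 in WT. GABAergic markers were at 1.28 to 1.77 under the Tet2 cKO label and 1.37 to 1.81 in WT. They were highest in WT replicate 3 and Tet2 cKO replicate 2, the libraries with the lowest mean of the medial habenula list. Astrocyte markers were at 5.09 to 5.11 with the label and 4.89 to 5.05 in WT, and oligodendrocyte markers at 6.80 to 6.94 with the label and 6.74 to 6.84 in WT. Of the 10 astrocyte genes, 3 had an unadjusted p under 0.05 in edgeR, against 2.57% of the tested genes, and 0 were called. The groups did not overlap in 4 astrocyte genes higher under the label and 1 lower, against 6.8% of the tested genes in either direction. Ependymal markers were at 2.53 to 2.68 under the Tet2 cKO label and 2.90 to 3.12 in WT, and choroid plexus markers at 2.24 to 3.01 with the label and 2.62 to 3.82 in WT. The 8 ependymal genes summed to 43.9 to 53.1 FPKM with the label and 58.5 to 73.2 FPKM in WT. The 11 choroid plexus genes summed to 226 to 919 FPKM with the label and 508 to 1591 FPKM in WT. The log2 difference was below 0 for all genes of both lists, and 0 were called by edgeR. An unadjusted p under 0.05 was found for 5 of the 8 ependymal and 8 of the 11 choroid plexus genes, against 2.57% of the tested genes. The groups did not overlap in 5 of the ependymal genes and 1 of the choroid plexus genes, against 6.8%. None of these was at 0 in any library, whereas Dlx2 of the GABAergic list was listed at 0 in at least 1 library. The part of these cells in the marker gene values was not tested.

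The genes most like each marker gene over the 6 libraries were searched among 7841 genes whose mean reached 5 FPKM. For Pcdh10 they were Kif1a, Helz and Scaf4 (r = 0.99 each), for Gap43 Klhl8, Setd3 and Arpp19 (r = 0.99 each), for Chrm3 Midn, Rnf149 and Srcin1 (r = 0.99 each), for Mef2c Epb41l3, Fam185a and Rsad1 (r = 0.98, 0.97 and 0.97) and for Tmem145 Cdc42se1, Irf2bp1 and Emc10 (r = 0.995, 0.98 and 0.97). Kif1a, a kinesin that carries synaptic vesicle precursors, stood at 125.36, 146.71 and 154.07 FPKM with the Tet2 cKO label, against 143.10, 140.25 and 122.68 FPKM in WT, the same order of libraries as Pcdh10. At a lower bound of 0.9, 4.69% of the searched genes had an r above it with Pcdh10, 2.07% with Gap43, 1.65% with Chrm3, 0.638% with Mef2c and 0.536% with Tmem145. The named genes have the highest r of 7841 searched over only 6 libraries, so their high r follows from the search. How often unrelated genes would exceed 0.9 was not computed, so these r are descriptions and no evidence of a shared control.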

How the data were processed

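RNA-seq of the habenula was compared between 3 libraries labelled Tet2 cKO and 3 WT libraries. The authors deposited raw counts per gene and FPKM per gene for each library. The deposited FPKM equal the count divided by exonic size and library total, to within 0.005. Per the submitters' processing notes, the build was mm10 and the tools were HISAT2 2.0.1, SAMtools 0.1.19, cutadapt 1.9.1 and FastQC 0.10.1. Which counter, annotation release and strandedness were used is not given in the sources used here. Of 52083 gene identifiers shared with GENCODE release M21 on GRCm38, 51479 had the same width in the table but only 1457 the same start and end. Coordinates in the table thus differ from those of GENCODE on GRCm38, although the build named is mm10. Which assembly they follow was not tested, and the positions printed are those of GENCODE.

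Counts of the 14539 genes whose mean reached 1 FPKM were tested with edgeR 4.0.16 in R 4.3.3 (two-sided quasi-likelihood test, TMM scaling, no covariate). P-values were adjusted over all 14539 genes (Benjamini-Hochberg) and called under 0.05. Intervals are 95%. The common biological coefficient of variation was 10.4%. Alternatives used limma 3.58.1, DESeq2 1.42.0, other scalings and filters, a replicate block, a removed size trend and each library left out. Exact permutation tests used SciPy 1.17.1 over 20 divisions of the libraries. Lists were described by counts, medians and the mean of log2(FPKM + 1), without a list test.

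The named genes are the marker genes, Tet2, any member of the other lateral habenula list and of the gene family lists, up to 4 of the most abundant members of each other list, and for each marker gene the 3 genes with the highest Pearson r of log2(CPM + 1). Dlx2 and the antisense gene beside Pcdh10 were named outside that rule, after values were seen. The marker genes and the lists were chosen with earlier results of these data known. The libraries hold 16089676 to 17917987 counts, and counting errors given from counts cover counting error alone.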

Additional observations from a re-analysis of the deposited data

How the results depend on the processing

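No marker gene passed the threshold in the edgeR test or under any alternative. Of the 5, Pcdh10 and Chrm3 kept their direction throughout. Leaving out each library gave log2 differences of 0.015 to 0.219 for Pcdh10, -0.0353 to 0.226 for Gap43, 0.0474 to 0.228 for Chrm3, -0.00501 to 0.106 for Mef2c and -0.163 to 0.0763 for Tmem145. Library weights gave 0.173 for Gap43, -0.0104 for Mef2c and 0.0584 for Tmem145, and the cause was not tested. Chrm3 has no value under the filter of 5 FPKM, which it does not pass. The number of called genes was 4 with DESeq2, 49 without a filter on low values, 2 with library weights and 0 to 3 with a library left out. The number at an unadjusted p under 0.05 was 1109 without a filter (31689 genes tested), 132 with a filter of 5 FPKM (8378 genes tested), 962 with library weights and 228 to 865 with a library left out. List medians that moved by more than the SD of the list's mean level between replicates were those of growth cone proteins (-0.043 to 0.103 with a library left out), of muscarinic receptors (0.0161 without a filter, which adds Chrm5), of MEF2 factors (-0.00897 without a filter, -0.0104 with library weights, -0.0192 with the size trend removed, -0.0149 with that and the block, -0.0105 to 0.0703 with a library left out) and of the Tmem145 family (-0.0766 to -0.0294 with a library left out). The other 212 list medians computed moved by less. Of 20 alternative values for the correlations between marker genes, 10 moved by more than the SD over left-out libraries.

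The labels do not state whether the replicate numbers pair the libraries. Deviations of same-numbered libraries from their group means correlated at -0.089, 0.246 and -0.128. With 3 libraries a group, whose deviations sum to 0, these values cannot show or exclude a pairing. With the replicate block the log2 differences were 0.102 for Pcdh10, 0.0782 for Gap43, 0.147 for Chrm3, 0.0494 for Mef2c and -0.0449 for Tmem145, with 0 genes called and 346 at an unadjusted p under 0.05.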
